A study of Homo sapiens with 10 samples.

Results

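The genes examined here build ribosomes in the nucleolus: 42 human genes chosen by name for their role in transcribing, cutting, modifying and assembling ribosomal RNA. Of these, 37 were measured by a probe set assigned to exactly 1 gene and entered the tests, among 14330 genes tested in all. They comprised 17 factors of the small ribosomal subunit, 8 of 11 listed factors of the large subunit, 5 of 7 proteins of small nucleolar ribonucleoproteins, 3 subunits of RNA polymerase I and 4 other abundant nucleolar proteins. NOP56, DKC1 and BOP1 were read only by probe sets that the platform annotation shares with the small RNA genes in their introns, and DDX18 and GNL3 were not matched to a probe set, so these 5 genes were not analysed here. All 37 measured genes were above the median of the array in 10 of 10 arrays, so that none of them passed the filter on low values through a single group.

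RNA came from LNCaP, an androgen-responsive prostate cancer line from a lymph node metastasis, and DU145, an androgen-independent line from a brain metastasis. Each line was profiled on 5 Affymetrix arrays in 3 groups: 1 array of EOS cells treated with ribavirin, 2 of EOS cells and 2 of PGK control cells. EOS is a reporter vector in which enhancers of OCT4 and SOX2 drive GFP and puromycin resistance, and cells carrying it were grown in puromycin for a few weeks, per the labels' protocols. The control vector carries the same pair of genes behind the ubiquitous PGK promoter, so that GFP and the resistance gene are common to all 6 groups. What EOS selection retains is defined by activity of the reporter, and the labels do not say how many clones survived, whether control cells were kept in puromycin or what dose and time of ribavirin was used. Ribavirin, a guanosine analogue known to inhibit IMP dehydrogenase, was given to the cells labelled EOS 2. Whether arrays 1 and 2 come from different selections or cultures is not stated, and the p-values therefore rest on array-to-array spread that may be purely technical.

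As background, ribosome production starts in the nucleolus, where RNA polymerase I transcribes a long precursor of the ribosomal RNAs. Small nucleolar ribonucleoproteins guide methylation and pseudouridylation of that precursor, the small subunit processome folds and cuts its 5′ part, and a separate set of factors assembles the large subunit around its 3′ part. The transcription factor MYC, with its partner MAX, is known to bind E-boxes near many of these genes, and prominent nucleoli are a feature that pathologists use in the diagnosis of prostate cancer.

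The promoters of the members whose arrays differed most between EOS and PGK cells in LNCaP are shown because they differ in whether they hold the E-box CACGTG. They belong to 5 of the 7 members of smallest p for that comparison (the other two, RRS1 and NOP58, are not shown), and were taken from RefSeq on GRCh38.p14, from 250 bases before to 50 bases after the annotated start, 5′ to 3′ on the strand of the gene. Capitals mark CACGTG, which reads the same on both strands. NIFK lies at chr2:121736826-121737125 (minus strand), NOP2 at chr12:6568242-6568541 (minus strand), UTP14A at chrX:129905914-129906213 (plus strand), WDR75 at chr2:189441224-189441523 (plus strand) and UTP20 at chr12:101279855-101280154 (plus strand).
NIFK: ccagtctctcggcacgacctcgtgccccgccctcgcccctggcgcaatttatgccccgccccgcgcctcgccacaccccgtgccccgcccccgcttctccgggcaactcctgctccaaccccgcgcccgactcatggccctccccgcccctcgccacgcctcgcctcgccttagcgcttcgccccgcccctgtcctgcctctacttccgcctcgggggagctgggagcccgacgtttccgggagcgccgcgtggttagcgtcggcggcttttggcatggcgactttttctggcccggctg
NOP2: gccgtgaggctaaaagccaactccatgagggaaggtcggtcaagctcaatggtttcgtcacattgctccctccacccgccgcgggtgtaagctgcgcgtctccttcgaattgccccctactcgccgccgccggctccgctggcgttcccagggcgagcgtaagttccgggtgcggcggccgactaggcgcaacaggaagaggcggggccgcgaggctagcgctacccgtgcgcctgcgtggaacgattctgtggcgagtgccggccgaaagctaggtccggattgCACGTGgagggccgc
UTP14A: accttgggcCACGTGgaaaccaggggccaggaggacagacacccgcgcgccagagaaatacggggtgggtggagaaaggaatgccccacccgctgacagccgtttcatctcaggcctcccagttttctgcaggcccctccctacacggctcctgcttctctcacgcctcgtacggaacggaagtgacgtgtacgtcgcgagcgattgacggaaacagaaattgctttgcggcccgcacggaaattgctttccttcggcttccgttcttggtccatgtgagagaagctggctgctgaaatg
WDR75: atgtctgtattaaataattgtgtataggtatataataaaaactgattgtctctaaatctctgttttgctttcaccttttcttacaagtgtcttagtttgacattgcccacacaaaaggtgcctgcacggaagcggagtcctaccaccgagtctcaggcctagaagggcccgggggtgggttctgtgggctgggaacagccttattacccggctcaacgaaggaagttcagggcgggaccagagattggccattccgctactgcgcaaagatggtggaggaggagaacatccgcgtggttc
UTP20: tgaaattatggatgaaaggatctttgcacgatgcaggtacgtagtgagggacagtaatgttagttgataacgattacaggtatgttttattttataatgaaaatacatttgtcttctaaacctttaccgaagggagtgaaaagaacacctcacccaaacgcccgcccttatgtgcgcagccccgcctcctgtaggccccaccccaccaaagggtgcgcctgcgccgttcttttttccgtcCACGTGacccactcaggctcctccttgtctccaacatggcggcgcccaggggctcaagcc
NOP2 held the motif 36 bases after its start, UTP20 at position -10 and UTP14A at position -241, while NIFK and WDR75 held no CACGTG in this window. The table held a promoter for 35 of the 42 listed genes, and 18 of these 35 (51.4%) had CACGTG, against 12.3% of the 11511 tested genes with a promoter in it. Within 50 bases of the start the share was 45.7% for the listed genes (16 of 35), against 5.2% of the tested genes. By role, the motif was in 10 of 16 small subunit factors, 4 of 7 large subunit factors, 2 of 5 small nucleolar RNP proteins, 2 of 4 other nucleolar genes and 0 of 3 RNA polymerase I subunits. A match describes the letters and not binding, and its absence says only that these letters are not in this window.

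Levels below are log2(intensity + 16) after each array was scaled to a trimmed mean of 500, and a difference of 1 on this scale is about 2-fold for bright genes. Levels of different probe sets are not compared with each other. Over all genes, the lines were separated by principal component 1, which held 76.2% of the variance. Component 2 (8.14%) separated the LNCaP arrays numbered 1 from those numbered 2, and the LNCaP PGK array numbered 2 stood apart on component 3 (4.21%). The arrays numbered 2 also had a higher ratio of 3′ to 5′ signal for ACTB, a sign of shorter RNA or shorter amplified product, at 3.20 to 3.99 against 1.24 to 1.51 in the arrays numbered 1. EOS and PGK groups each hold both numbers, whereas both ribavirin arrays belong to number 2. The line labels were checked on luminal prostate genes: KLK3, KLK2, TMPRSS2 and HOXB13 were all called higher in LNCaP than in DU145 among PGK cells, with summed scaled intensities of 45056 to 56736 in LNCaP and 75 to 114 in DU145.

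EOS cells were compared with PGK cells to ask what accompanies selection for OCT4 and SOX2 enhancer activity. In LNCaP, most ribosome biogenesis genes read lower in EOS than in PGK cells: 33 of 37 had a fitted difference below 0, with a median of -0.35 on the log2 scale, a lowest value of -0.85 (RRS1) and a highest of 0.15 (NAT10). Over all genes tested the median was 0.05. The median over the members was -0.22 in the pair of arrays numbered 1 and -0.39 in the pair numbered 2. In 22 of 37 members (59.5%) both EOS arrays lay below both PGK arrays, against 10.6% of all genes tested, and 0 members had both EOS arrays above. No single member passed limma's test after Benjamini-Hochberg adjustment (0 of 37, against 0% of all genes tested, lowest adjusted p = 0.999). At an unadjusted p under 0.05, 5 members were lower (NIFK, RRS1, NOP2, UTP14A and WDR75, 13.5%, against 1.1% of all genes) and 0 were higher. With line and array number as a replicate block the median was the same, -0.35, with 0 members called and 13 of 37 at an unadjusted p under 0.05. Over all 14330 genes tested, 1296 were under 0.05 with the block, against 157 lower and 439 higher without it. Without LNCaP PGK 2, the array that stands apart, the median was -0.33 with 0 members called.

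In DU145 the same genes read slightly higher in EOS than in PGK cells on the scaled arrays, whereas on the deposited intensities without scaling their median was -0.04 and that of all genes -0.18. Of 37 members 35 had a fitted difference above 0, with a median of 0.14, from -0.12 (WDR75) to 0.48 (UTP20), against a median of -0.02 over all genes tested. The pair numbered 1 gave a median of 0.29 and the pair numbered 2 a median of 0.07, so that the larger value lay in the arrays numbered 1. In 11 of 37 members (29.7%) both EOS arrays lay above both PGK arrays, against 13.2% of all genes, and WDR75 alone lay below. The test called 0 of 37 members (0% of all genes, adjusted p = 1), and UTP20 alone was higher at an unadjusted p under 0.05 (2.7%, against 0.663% of all genes). Without DU145 EOS 1 the median was 0.02. All DU145 values by role and by gene below are from scaled arrays.

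**Figure D1:**
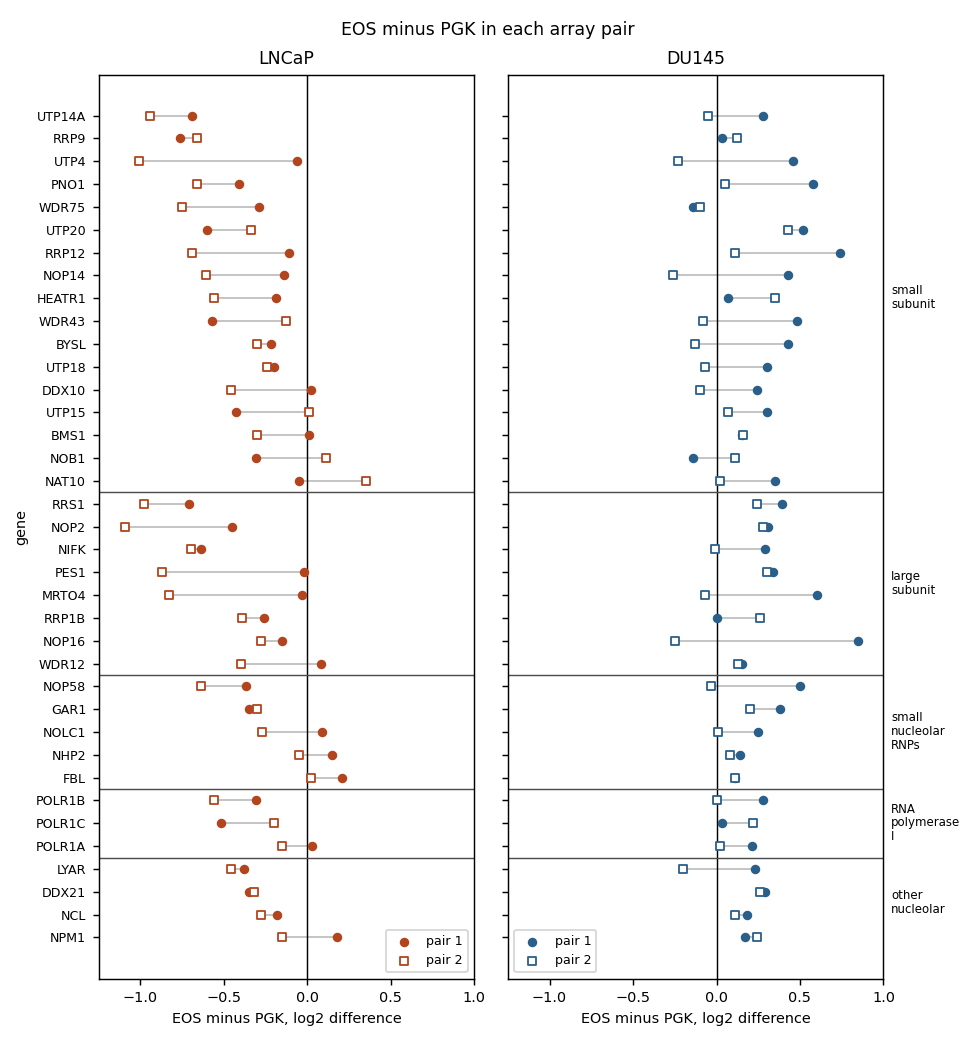
EOS minus PGK, as a log2 difference on the x axis, for each of the 37 measured genes down the y axis, in LNCaP (left) and DU145 (right), with filled circles for the pair of arrays numbered 1, open squares for the pair numbered 2 and a grey line joining them. In LNCaP most points lie left of 0, with medians of -0.22 and -0.39, and in DU145 most lie right of 0 on these scaled arrays, with medians of 0.29 and 0.07 (unscaled, the fitted DU145 median was -0.04).

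**Figure D2:**
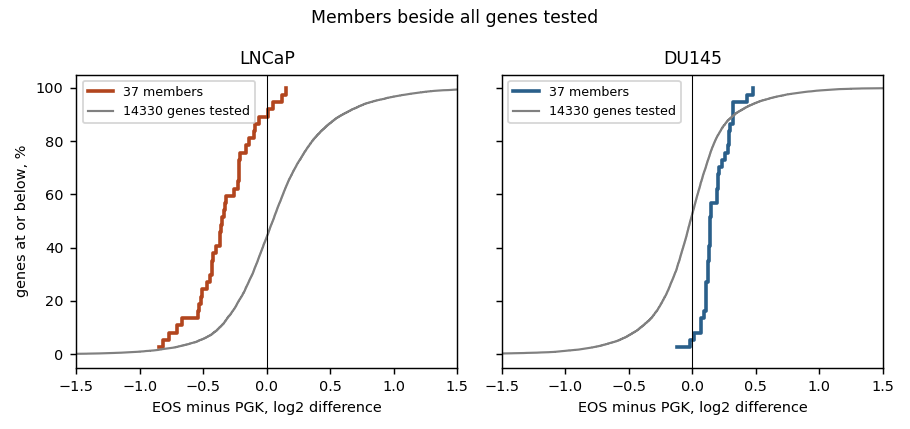
Cumulative share of genes (y axis, %) at or below a fitted EOS minus PGK log2 difference (x axis), for the 37 members (thick coloured line) and the 14330 genes tested (grey line), in LNCaP (left) and DU145 (right). The members' line lies left of that of all genes in LNCaP, with medians of -0.35 and 0.05, and mostly right of it in DU145, with medians of 0.14 and -0.02 (unscaled, -0.04 and -0.18).

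The difference between the lines was itself fitted, as EOS minus PGK in LNCaP minus EOS minus PGK in DU145. It was below 0 in 36 of 37 members, with a median of -0.48 (-0.57 from the arrays numbered 1 and -0.49 from those numbered 2), against a median of 0.06 over all genes. Without scaling the medians were -0.28 over the members and 0.22 over all genes. RRS1 was the lowest at -1.16 ± 0.35 and FBL the highest at 0.01 ± 0.21 (± gives the standard error of the limma fit, in which all 10 arrays share a moderated spread). No member was called (0 of 37, 0% of all genes, adjusted p = 1), and 6 were lower at an unadjusted p under 0.05 (16.2%, against 0.74% of all genes). Lower in both LNCaP pairs and higher in both DU145 pairs were 13 members (35.1%, against 5.81% of all genes): NOP2, RRS1, RRP1B, RRP9, RRP12, UTP20, NCL, GAR1, PES1, HEATR1, DDX21, POLR1C and PNO1. Averaged over both lines, the EOS minus PGK median was -0.06, with 27 members below 0 and 0 called (0% of all genes).

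Among the 17 small subunit factors, 16 were below 0 in LNCaP, with a median of -0.37, and 15 were above 0 in DU145, with a median of 0.15. UTP14A, a processome factor known in yeast to activate the helicase that releases U3 RNA, read 9.90 and 9.14 in LNCaP EOS cells, against 10.59 and 10.08 in LNCaP PGK cells. Both LNCaP EOS arrays lay below both PGK arrays, with a fitted difference of -0.82 ± 0.29 (unadjusted p = 0.0229, adjusted p = 0.999). In DU145 it read 11.38 and 11.08 in EOS cells, against 11.10 and 11.13 in PGK cells, so that the groups overlapped. After ribavirin it read 9.11 in LNCaP and 11.13 in DU145, close to EOS 2 of the same line. Another, dimmer probe set of UTP14A was lower in EOS cells by -0.48 in LNCaP and -0.51 in DU145, and reads of the retrogene copy UTP14C cannot be told apart from those of UTP14A where a probe matches both.

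UTP20, a large scaffold protein of the processome, differed in opposite directions in the lines, by -0.60 and -0.34 in the LNCaP pairs numbered 1 and 2 and by 0.52 and 0.43 in the DU145 pairs. Its levels were 9.26 and 9.59 in LNCaP EOS cells, against 9.86 and 9.93 in LNCaP PGK cells, and 10.57 and 10.43 in DU145 EOS cells, against 10.05 and 10 in DU145 PGK cells. EOS arrays lay below PGK arrays in LNCaP and above them in DU145, with no overlap in either line. The fitted differences were -0.47 ± 0.21 in LNCaP and 0.48 ± 0.21 in DU145, and the difference between them was -0.95 ± 0.29 (unadjusted p = 0.0116, adjusted p = 1). The ribavirin arrays read 9.72 in LNCaP and 10.31 in DU145.

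WDR75 belongs to UTP-A, the subcomplex that binds the nascent precursor and that is also known to be needed for its transcription. It read 10.11 and 10.03 in LNCaP EOS cells, against 10.40 and 10.77 in PGK cells, and 10.41 and 10.35 in DU145 EOS cells, against 10.56 and 10.46 in PGK cells. In both lines the EOS arrays were the lower ones without overlap, by -0.52 ± 0.20 in LNCaP and -0.12 ± 0.20 in DU145. It read 10.02 in LNCaP and 10.43 in DU145 after ribavirin. Of the 5 UTP-A members measured (UTP4, UTP15, HEATR1, WDR43 and WDR75), 5 were lower in the LNCaP pair numbered 1, from -0.57 to -0.06, and 4 in the pair numbered 2, from -1.01 to 0.01. In DU145 the same 5 ranged from -0.14 to 0.48 in pair 1 and from -0.23 to 0.35 in pair 2.

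RRP12, a repeat protein known in yeast to act in export of pre-ribosomes, read 8.94 and 8.49 in LNCaP EOS cells, against 9.05 and 9.18 in PGK cells. In DU145 it read 9.17 and 8.89 in EOS cells, against 8.44 and 8.78 in PGK cells. The EOS arrays were the lower ones in LNCaP and the higher ones in DU145, with fitted differences of -0.40 ± 0.27 and 0.43 ± 0.27. Ribavirin arrays read 8.75 in LNCaP and 8.62 in DU145. Dimmer probe sets of RRP12 that passed the filter lay on both sides of 0 for EOS minus PGK in LNCaP, at -0.44 and 0.49.

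NOP14, a core protein of the processome, read 10.65 and 10.05 in LNCaP EOS cells, against 10.79 and 10.66 in PGK cells, and 9.79 and 9.35 in DU145 EOS cells, against 9.35 and 9.61 in PGK cells. The LNCaP EOS arrays were just below the PGK arrays (10.65 against 10.66 at the closest), and the DU145 groups overlapped. After ribavirin NOP14 read 9.72 in LNCaP, the lowest of its 5 LNCaP arrays, and 9.58 in DU145. NAT10, the acetyltransferase that modifies cytidines of 18S ribosomal RNA, had the highest fitted difference of the members in LNCaP, at 10.30 and 10.04 in EOS cells, against 10.35 and 9.69 in PGK cells. Its LNCaP groups overlapped, with a fitted difference of 0.15 ± 0.26 (-0.05 and 0.35 in the pairs numbered 1 and 2). In DU145 NAT10 read 10.24 and 9.96 in EOS cells, against 9.89 and 9.94 in PGK cells, without overlap, and after ribavirin it read 9.75 in LNCaP and 9.82 in DU145.

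NOB1, the nuclease that trims the 3′ end of 18S ribosomal RNA, read 10.40 and 10.70 in LNCaP EOS cells, against 10.71 and 10.60 in PGK cells, and 11.89 and 11.83 in DU145 EOS cells, against 12.04 and 11.72 in PGK cells. The EOS and PGK arrays overlapped in both lines, and all 5 LNCaP arrays lay below all 5 DU145 arrays, with ribavirin arrays at 10.46 in LNCaP and 11.78 in DU145. The other 10 small subunit factors (RRP9, UTP4, PNO1, HEATR1, WDR43, BYSL, UTP18, DDX10, UTP15 and BMS1) had fitted EOS minus PGK differences from -0.71 (RRP9) to -0.14 (BMS1) in LNCaP and from 0.07 (RRP9 and DDX10) to 0.32 (PNO1) in DU145. RRP9, a protein bound to U3 RNA, differed more by array number than by vector in DU145: DU145 PGK cells read 8.65 on array 1 and 7.40 on array 2, and DU145 EOS cells 8.67 and 7.52. In LNCaP its EOS minus PGK differences were -0.76 and -0.66 in the pairs numbered 1 and 2, beside array 2 minus array 1 differences of -0.59 in EOS cells and -0.69 in PGK cells.

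**Figure D3:**
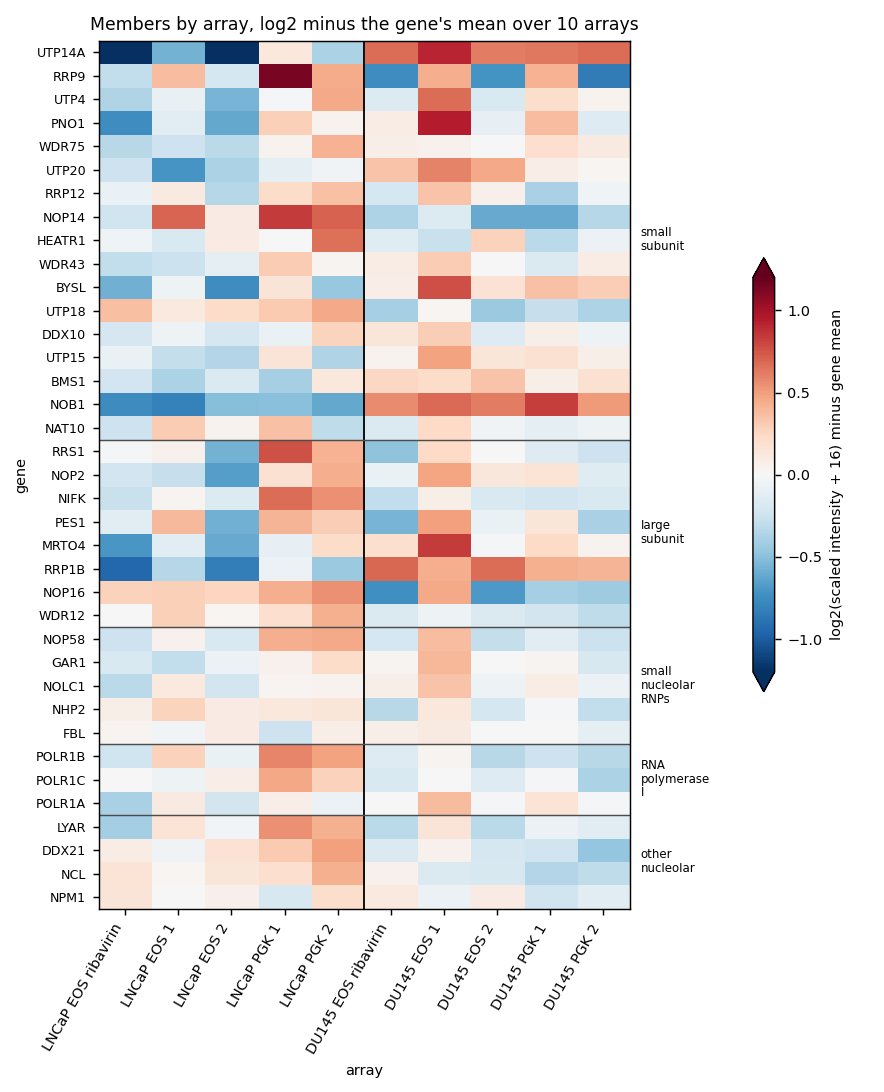
Level of each of the 37 measured genes (rows) in each of the 10 arrays (columns), as log2(scaled intensity + 16) minus the gene's mean over the 10 arrays, red for above and blue for below that mean, with the 5 LNCaP arrays left of the 5 DU145 arrays and black horizontal lines between roles. In LNCaP the ribavirin and EOS columns are mostly bluer than the PGK columns, and in DU145 the column of EOS 1 is the reddest.

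All 8 measured large subunit factors were below 0 in LNCaP, from -0.85 to -0.16 with a median of -0.44, and all 8 were above 0 in DU145, from 0.13 to 0.32 with a median of 0.28. NIFK, a nucleolar RNA-binding protein that interacts with the proliferation antigen Ki-67, read 12.42 and 12.23 in LNCaP EOS cells, against 13.06 and 12.94 in PGK cells. Both pairs differed by nearly the same amount, -0.64 and -0.70, and the fitted difference was -0.67 ± 0.17 (unadjusted p = 0.00324, adjusted p = 0.999). That p was the smallest of the members in the fit without the replicate block. In limma's fit with the block RRS1 had the smallest (unadjusted p = 0.000526, adjusted p = 0.393), and NIFK had an unadjusted p of 0.00118 (adjusted p = 0.47). In DU145 it read 12.46 and 12.21 in EOS cells, against 12.16 and 12.21 in PGK cells, where 1 EOS array matched the PGK arrays. After ribavirin it read 12.12 in LNCaP and 12.10 in DU145, the lowest NIFK value of each line. Another probe set of NIFK gave -0.51 in LNCaP and 0.07 in DU145.

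RRS1 brings 5S ribosomal RNA into the forming large subunit and had the lowest EOS minus PGK value among the members in LNCaP. It read 11.24 and 10.62 in LNCaP EOS cells, against 11.95 and 11.60 in PGK cells, and 11.42 and 11.18 in DU145 EOS cells, against 11.03 and 10.94 in PGK cells. The groups did not overlap in either line, with EOS lower by -0.85 ± 0.25 in LNCaP and higher by 0.32 ± 0.25 in DU145. After ribavirin it read 11.16 in LNCaP, which is above EOS 2 by 0.55, and 10.70 in DU145, which differs from EOS 2 by -0.47.

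NOP2, the enzyme that methylates a cytosine of 28S ribosomal RNA and an early known marker of dividing cells, read 9.41 and 9.03 in LNCaP EOS cells, against 9.87 and 10.12 in PGK cells. In DU145 it read 10.16 and 9.82 in EOS cells, against 9.85 and 9.54 in PGK cells. The LNCaP EOS arrays were lower without overlap, by -0.77 ± 0.25, while in DU145 EOS 2 lay just below PGK 1 and the fitted difference was 0.29 ± 0.25. Ribavirin arrays read 9.46 in LNCaP and 9.61 in DU145. PES1, which with BOP1 and WDR12 forms the PeBoW complex that large subunit assembly requires, read 10.13 and 9.17 in LNCaP EOS cells, against 10.15 and 10.04 in PGK cells. Its LNCaP difference lay in pair 2 alone (-0.87, against -0.02 in pair 1), and the groups overlapped. In DU145 PES1 read 10.23 and 9.66 in EOS cells, against 9.89 and 9.35 in PGK cells, and after ribavirin it read 9.62 in LNCaP and 9.18 in DU145. The other 4 large subunit factors, MRTO4, RRP1B, NOP16 and WDR12, ranged from -0.43 (MRTO4) to -0.16 (WDR12) in LNCaP and from 0.13 (RRP1B) to 0.30 (NOP16) in DU145. Of 3 further probe sets of NOP16, the brightest gave -0.71 in LNCaP and 0.18 in DU145, and the dimmest gave -0.87 in DU145.

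The 5 small nucleolar RNP proteins had fitted LNCaP values from -0.51 to 0.12 (median -0.09, 3 of 5 below 0) and DU145 values from 0.11 to 0.29 (median 0.13, 5 of 5 above 0). NOP58, a core protein of the box C/D particles that guide ribose methylation, read 12.46 and 12.22 in LNCaP EOS cells, against 12.84 and 12.86 in PGK cells, and 12.77 and 12.12 in DU145 EOS cells, against 12.27 and 12.15 in PGK cells. The LNCaP groups did not overlap (-0.51 ± 0.22) and the DU145 groups did. FBL, the methyltransferase of the same particles, read 13.97 and 14.10 in LNCaP EOS cells, against 13.76 and 14.08 in PGK cells, and 14.11 and 14.01 in DU145 EOS cells, against 14.00 and 13.90 in PGK cells. FBL was the only member above 0 in both LNCaP pairs, at 0.21 and 0.02, and its DU145 groups did not overlap.

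GAR1 and NHP2 are proteins of the box H/ACA particles, which guide pseudouridylation. GAR1 read 10.55 and 10.77 in LNCaP EOS cells, against 10.89 and 11.06 in PGK cells, and 11.24 and 10.85 in DU145 EOS cells, against 10.87 and 10.65 in PGK cells. Its EOS arrays were lower without overlap in LNCaP and overlapped the PGK arrays narrowly in DU145. NHP2 read 14.16 and 13.99 in LNCaP EOS cells, against 14.02 and 14.04 in PGK cells, and 14.02 and 13.68 in DU145 EOS cells, against 13.88 and 13.60 in PGK cells, with overlap in both lines. The ribavirin arrays read 12.16 in LNCaP and 12.19 in DU145 for NOP58, 14.04 and 14.07 for FBL, 10.66 and 10.87 for GAR1, and 13.96 and 13.56 for NHP2. The remaining protein, the particle chaperone NOLC1, differed by -0.09 in LNCaP and 0.13 in DU145. Other probe sets of NOLC1 gave -0.25 and -0.31 in LNCaP, and 0.32 and 0.40 in DU145.

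Of the RNA polymerase I subunits, POLR1B, which forms the active site together with POLR1A, read 10.70 and 10.35 in LNCaP EOS cells, against 11.01 and 10.91 in PGK cells. In DU145 it read 10.46 and 10.09 in EOS cells, against 10.18 and 10.09 in PGK cells. The LNCaP EOS arrays lay below both PGK arrays, by -0.43 ± 0.22 (unadjusted p = 0.083, adjusted p = 0.999), and the DU145 groups overlapped. POLR1C, which is shared with RNA polymerase III, read 10.40 and 10.54 in LNCaP EOS cells, against 10.92 and 10.73 in PGK cells, and 10.45 and 10.30 in DU145 EOS cells, against 10.43 and 10.08 in PGK cells. Its LNCaP groups did not overlap (-0.36 ± 0.21) and its DU145 groups did. POLR1A, the largest subunit, read 8.02 and 7.69 in LNCaP EOS cells, against 7.99 and 7.84 in PGK cells, and 8.29 and 7.90 in DU145 EOS cells, against 8.08 and 7.89 in PGK cells, with overlap in both lines. After ribavirin POLR1A read 7.52 in LNCaP and 7.91 in DU145, POLR1B 10.19 and 10.27, and POLR1C 10.45 and 10.27. Other probe sets of POLR1A gave -0.56 and -0.20 in LNCaP, where the brightest gave -0.06, so that the size of its difference depended on the probe set. The same held for POLR1B, whose 3 other probe sets gave -0.15, -0.019 and -0.0021 in LNCaP, where the brightest gave -0.43.

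The other nucleolar proteins were led by DDX21, a helicase known to act in both transcription and processing of ribosomal RNA. It read 13.70 and 13.91 in LNCaP EOS cells, against 14.05 and 14.23 in PGK cells, and 13.79 and 13.54 in DU145 EOS cells, against 13.50 and 13.28 in PGK cells. As for UTP20 and RRS1, EOS arrays were lower in LNCaP (-0.34 ± 0.16) and higher in DU145 (0.28 ± 0.16) without overlap, and the difference between lines was -0.61 ± 0.23 (unadjusted p = 0.0268, adjusted p = 1). NCL, nucleolin, read 14.15 and 14.28 in LNCaP EOS cells, against 14.33 and 14.56 in PGK cells, and 13.96 and 13.94 in DU145 EOS cells, against 13.78 and 13.83 in PGK cells. It showed the same pattern without overlap at a smaller size, -0.23 ± 0.14 in LNCaP and 0.14 ± 0.14 in DU145.

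LYAR, a nucleolar zinc finger protein, read 10.81 and 10.61 in LNCaP EOS cells, against 11.19 and 11.07 in PGK cells, and 10.80 and 10.32 in DU145 EOS cells, against 10.58 and 10.52 in PGK cells. It was lower without overlap in LNCaP (-0.42 ± 0.22) and mixed in DU145. NPM1, nucleophosmin, read 15.23 and 15.30 in LNCaP EOS cells, against 15.05 and 15.45 in PGK cells, and 15.17 and 15.34 in DU145 EOS cells, against 15.00 and 15.10 in PGK cells. Its groups overlapped in LNCaP and did not in DU145, and signal from its processed pseudogenes cannot be told apart from its own. Ribavirin arrays read 13.83 in LNCaP and 13.57 in DU145 for DDX21, 14.29 and 14.18 for NCL, 10.24 and 10.32 for LYAR, and 15.39 and 15.36 for NPM1.

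A further 31 probe sets, of 19 of these genes, passed the filter on low values beside the brightest ones used above. Of these, 28 were below 0 for EOS minus PGK in LNCaP (median -0.24) and 25 were above 0 in DU145 (median 0.14). Among members tested with a promoter in the table, the 17 with CACGTG had a median of -0.42 in LNCaP and 0.19 in DU145, and the 15 without it had medians of -0.22 and 0.14. The difference between these medians was not tested.

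The wider pathway was described with lists of genes that are no members. Of 35 further small subunit factors tested, 31 were below 0 in LNCaP (median -0.28) and 31 above 0 in DU145 (median 0.12), and of 39 further large subunit factors 33 were below 0 in LNCaP (median -0.27) and 30 above 0 in DU145 (median 0.08). In LNCaP, ESF1 and UTP23, factors of the small subunit, differed by -0.63 ± 0.21 and -0.62 ± 0.20, and RRP15 and CEBPZ, factors of the large subunit, by -0.85 ± 0.30 and -0.55 ± 0.18 (adjusted p = 0.999 each). The 13 other genes of RNA polymerase I transcription had medians of -0.12 in LNCaP and 0.07 in DU145, with RRN3, the factor that brings the polymerase to its promoter, at -0.37 ± 0.19 in LNCaP. The 12 genes of small nucleolar RNP assembly had medians of -0.19 and 0.04, with NUFIP1, an assembly factor of box C/D particles, at -0.84 ± 0.24 in LNCaP. In all of these lists 0 genes were called in either line.

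The proteins of the ribosome itself were listed separately. Of 52 cytosolic ribosomal proteins tested, 46 were above 0 in LNCaP (median 0.08) and 51 in DU145 (median 0.19), with 0 called. RPLP2, an acidic stalk protein, differed by 0.52 ± 0.26 in LNCaP (adjusted p = 0.999). Of 49 mitochondrial ribosomal proteins, 43 were below 0 in LNCaP (median -0.22) and 28 above 0 in DU145 (median 0.04), with 0 called. CACGTG was in 6.35% of the cytosolic ribosomal protein genes with a promoter in the table, in 36.7% of the further small subunit factors and in 28.2% of the further large subunit factors. It was in 11.6% of the mitochondrial ribosomal protein genes, 11.1% of the small nucleolar RNP assembly genes and 9.09% of the further RNA polymerase I genes. The share was 27.3% in the MYC network and 12.3% over the tested genes. Whether the motif and the differences go together was not tested. In the MYC network 8 of 10 genes were above 0 in LNCaP (median 0.25) and 6 of 10 in DU145 (median 0.10). MXI1, which pairs with MAX and is known to oppose MYC, differed by 0.73 ± 0.27 in LNCaP (unadjusted p = 0.0242, adjusted p = 0.999), and MYC differed by 0.21 ± 0.16 in DU145 (adjusted p = 1). MYCL, from the same list, differed the other way round between lines, by 0.43 ± 0.27 in LNCaP and -0.23 ± 0.27 in DU145. The value of MYC itself in LNCaP is not given here. The difference between lines, LNCaP minus DU145, ranged from -0.17 to 0.85 in this network, with 7 of 10 genes above 0. The part of the MYC network in the result was not tested.

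Markers of dividing cells were read beside these genes, since ribosome production and division are known to go together. All 6 listed (MKI67, TOP2A, CCNB1, PCNA, MCM2 and MCM5) were tested. Their summed scaled intensity was 31269 and 37507 in LNCaP EOS cells, against 34081 and 45394 in LNCaP PGK cells, and 45453 and 44420 in DU145 EOS cells, against 40421 and 42488 in DU145 PGK cells. Within each pair of arrays the sum lay on the same side as the median of the ribosome biogenesis genes, with 5 of 6 markers below 0 in LNCaP (median -0.11) and 5 of 6 above 0 in DU145 (median 0.10). In bulk RNA, fewer cells of a type and less RNA per cell cannot be told apart. Among markers of other cell types, 3 of 6 fibroblast, 2 of 5 leukocyte and 2 of 3 endothelial genes passed the filter on low values. Their sums ranged over 578 to 750 in LNCaP EOS cells and 240 to 431 in LNCaP PGK cells for fibroblast genes, 54 to 244 and 67 to 159 for leukocyte genes, and 248 to 297 and 137 to 231 for endothelial genes. In DU145 they ranged over 275 to 1041 in EOS cells and 369 to 571 in PGK cells for fibroblast genes, 50 to 79 and 47 to 51 for leukocyte genes, and 78 to 147 and 97 to 105 for endothelial genes. The 4 epithelial genes KRT8, KRT18, EPCAM and CDH1 summed to 53263 to 53344 in LNCaP EOS cells and 50303 to 54614 in LNCaP PGK cells, and to 12292 to 15866 in DU145 EOS cells and 15558 to 22408 in DU145 PGK cells. The part of the markers of dividing cells and of other cell types in the result was not tested.

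Ribavirin was compared with untreated EOS cells, with 1 treated array per line and a spread borrowed from the other groups. Neither line had a member called (0 of 37 in LNCaP, in DU145 and in the mean of both, 0% of all genes in each), and 0 members had an unadjusted p under 0.05. With the replicate block 0 members were called, and RRS1 alone had an unadjusted p under 0.05, in both lines. In that fit 406 of all 14330 genes tested were under 0.05 in LNCaP and 364 in DU145, a share close to that of the members. In LNCaP the median was -0.07, and against EOS 2, the cells that the labels give as the treated ones, it was -0.06 with 12 members higher and 25 lower. In DU145 the median was -0.18 against both EOS arrays, -0.36 against EOS 1 and 0.01 against EOS 2, where 19 members were higher and 18 lower. The members' median in EOS 2 minus EOS 1 was -0.34 in DU145. Averaged over both lines, the median was -0.16, with 32 members below 0. That median was -0.33 against the EOS arrays numbered 1, -0.01 against those numbered 2 and -0.06 with the replicate block.

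Against EOS 2 alone, some large subunit factors differed in opposite directions in the lines. RRS1 differed by 0.55 in LNCaP and -0.47 in DU145, PES1 by 0.45 and -0.47, and NOP2 by 0.43 and -0.21, each from 1 treated and 1 untreated array. In the fit with the replicate block RRS1 differed by 0.48 ± 0.20 in LNCaP (unadjusted p = 0.0447, adjusted p = 1) and by -0.51 ± 0.20 in DU145 (unadjusted p = 0.0341, adjusted p = 1), and whether the lines differ was not tested. LYAR had the lowest value in LNCaP, at -0.37, and 0.00 in DU145. The fitted difference of smallest p over both lines was that of LYAR, -0.36 ± 0.19 (unadjusted p = 0.0924, adjusted p = 1), followed by NAT10 at -0.35 ± 0.23 and NIFK at -0.22 ± 0.14. LNCaP ribavirin cells still read below PGK 2 in 35 of 37 members, with a median of -0.42, while in DU145 that median was 0.03.

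**Figure D4:**
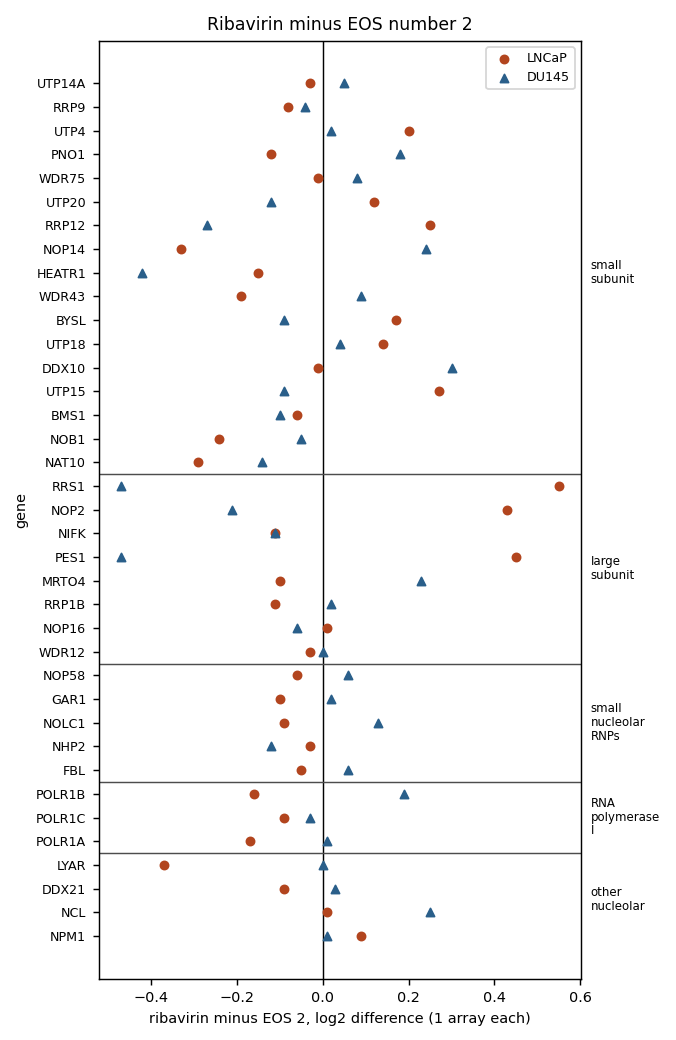
Ribavirin-treated EOS cells minus untreated EOS cells numbered 2, as a log2 difference of 1 array from 1 array (x axis), for each of the 37 measured genes (y axis), with circles for LNCaP and triangles for DU145. Points scatter around 0, with medians of -0.06 in LNCaP and 0.01 in DU145, and RRS1, PES1 and NOP2 lie apart between the lines.

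LNCaP was also set against DU145 among PGK cells. Of 37 members, 8 were called higher in LNCaP (21.6%, against 15.1% of all genes) and 2 lower (5.41%, against 17.9% of all genes), with a median of 0.22 and 27 members above 0. The 8 were NOP14 (1.24 ± 0.27, adjusted p = 0.00835), POLR1B (0.82 ± 0.22, adjusted p = 0.0203), NIFK (0.81 ± 0.17, adjusted p = 0.00649), RRS1, DDX21, UTP18, NCL and WDR12. The 2 lower ones were NOB1 (-1.22 ± 0.20, adjusted p = 0.00208) and RRP1B (-0.67 ± 0.21, adjusted p = 0.0393), a nucleolar protein that binds protein phosphatase 1. The number of members called depended on the setting. Fewer were called when any PGK array was left out, which leaves 1 PGK array in that line. With the replicate block 7 members were called, beside 5162 of all 14330 genes tested. Without it 2170 genes were called higher and 2559 lower in LNCaP. On unscaled intensities 0 members were called, and 4 with the replicate block on them. The shares of all genes on unscaled intensities are not given here.

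Among EOS cells the same gap was also read. The median LNCaP minus DU145 difference was -0.21 among EOS arrays, with 24 of 37 members below 0, beside 0.22 among PGK arrays. NIFK, which read 0.81 higher in LNCaP among PGK cells, differed by -0.04 and 0.03 between the EOS arrays numbered 1 and 2. For POLR1B the gap was 0.24 and 0.26 among EOS arrays and 0.83 and 0.82 among PGK arrays. Over all genes the median gap was 0.02 in EOS cells and -0.04 in PGK cells. The change of the gap is the same quantity as the difference between lines fitted above, in which 0 members were called.

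**Figure D5:**
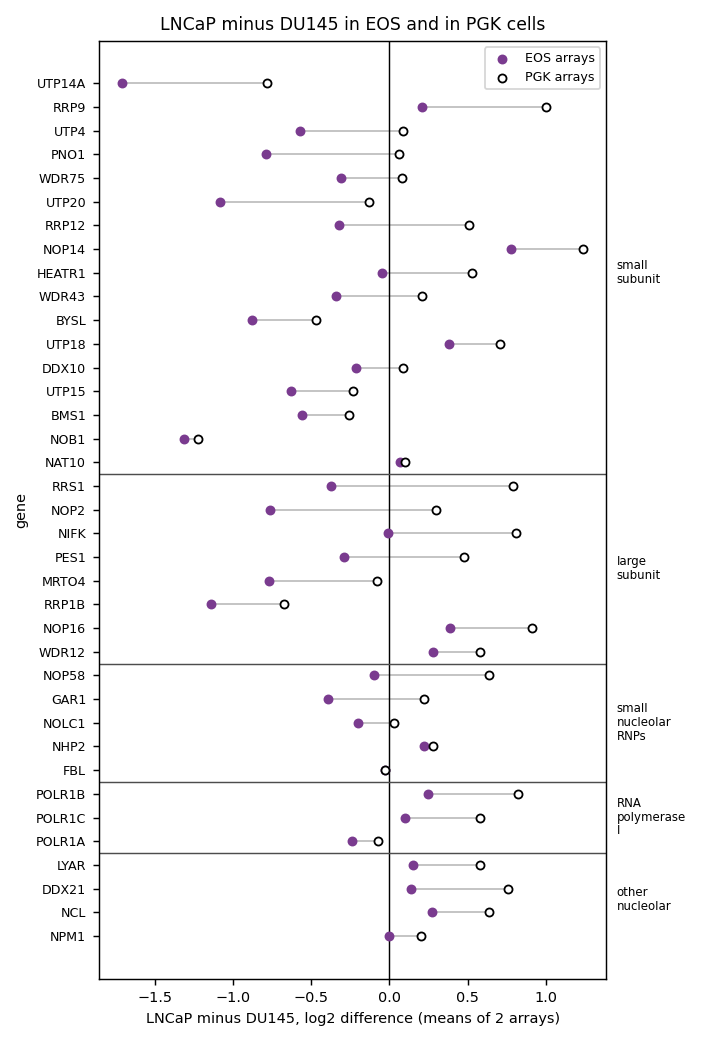
LNCaP minus DU145 log2 difference of group means (x axis) for each of the 37 measured genes (y axis), among EOS arrays (filled purple circles) and PGK arrays (open black circles), with a grey line joining them. The EOS circle lies left of the PGK circle in 36 of 37 genes, with medians of -0.21 and 0.22.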

How the data were processed

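Ribosome biogenesis genes were read on 10 Affymetrix arrays of LNCaP and DU145 cells in 6 groups. The authors deposited linear intensities, 1 per probe set and array. MAS5 and affy appear in the submitters' processing notes, with no version, and the background correction was not given in the sources used here. The deposited trimmed mean was 500 in the 4 arrays numbered 1 and 96.6 to 126.5 in the 6 numbered 2, so each array was scaled to a 2% trimmed mean of 500 and converted to log2(intensity + 16), a scale on which dim genes change less than they do in intensity.

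Of 54675 probe sets, 41097 had 1 gene symbol in the platform annotation, 1801 had several and 11777 had none, and 62 array controls were left out. Probe sets above the array median in at least 2 of 10 arrays were kept (33488), and the brightest of each gene was used, giving 14330 genes. Group means were fitted and compared with limma (version 3.58.1, R version 4.3.3), using eBayes with its trend option. P-values were adjusted by Benjamini-Hochberg over all genes, at 0.05. The number of arrays limits the precision. On simulated LNCaP data with 14330 genes, the EOS minus PGK test called 14% of genes changed by 1 on the log2 scale and 61% of those changed by 2. Both sizes are larger than any member's difference in LNCaP, where the lowest was -0.85. The simulated noise was independent between arrays, so the shares are not those for the members.

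Members, lists and tests were chosen with earlier results of these data known. Values in every array are given for the RNA polymerase I members and, in each other role, for the members of smallest p in each comparison (3 for EOS minus PGK in LNCaP, 2 for each of the others). From other lists at most the 2 genes of smallest p per comparison are named. Deviations from the group mean were correlated between same-numbered EOS and PGK arrays (r = 0.483 in LNCaP and 0.123 in DU145, across 14330 genes, which are not independent replicates), so the fit was repeated with a replicate block of line and number. Other alternatives were pseudocounts of 1 and 64, quantile normalization, no filter on low values, the mean over probe sets, unscaled intensities and leaving out each array.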

Additional observations from a re-analysis of the deposited data

Results flagged for a closer look

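On scaled arrays the EOS minus PGK median of the ribosome biogenesis genes lay on opposite sides of 0 in every pair of the lines. The fitted difference, LNCaP minus DU145, had a median of -0.48. Unscaled it was -0.28, with DU145 at -0.04, and the medians of all genes shifted in the same direction. The scaled pairs gave -0.22 and -0.39 in LNCaP, and 0.29 and 0.07 in DU145. The same held for 4 of the 5 roles. Small subunit factors had a median difference of -0.46 (-0.22 and -0.46 in LNCaP, 0.30 and 0.02 in DU145), and large subunit factors -0.73 (-0.21 and -0.77, against 0.32 and 0.19). RNA polymerase I subunits had -0.48 (-0.31 and -0.20, against 0.21 and 0.02), and the other nucleolar proteins -0.40 (-0.27 and -0.30, against 0.20 and 0.18). It did not hold for the small nucleolar RNP proteins, with pair medians of 0.09 and -0.27 in LNCaP, and 0.25 and 0.08 in DU145. The 0.09 is the value of NOLC1 on the probe set used. Other probe sets of NOLC1 gave EOS minus PGK differences of -0.25 and -0.31 over both LNCaP pairs, so this exception depended on the probe set. The difference of these medians was not tested. For single members limma's test of the difference called 0 of 37, with 6 at an unadjusted p under 0.05. Groups of 2 arrays were too small for a check of single outlying arrays.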

How the results depend on the processing

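No member was called for EOS against PGK, for the difference between lines or for ribavirin under any setting run, and 2 arrays against 2 limit what can be called. Without scaling, the DU145 EOS minus PGK median was -0.04, with and without the replicate block, instead of 0.14, and the median difference between lines was -0.28 in both instead of -0.48. The unscaled medians of all genes, given above, shifted in the same direction. The members' median stayed above that of all genes in DU145 and below it for the difference between lines. The members called between lines among PGK cells were 10, against 0 unscaled, 4 unscaled with the replicate block (a setting chosen after seeing the data) and 7 with the replicate block on scaled values. Over all genes tested, 5162 were called with the replicate block on scaled values, against 2170 higher and 2559 lower without it. The unscaled intensities keep the different deposited scales of arrays 1 and 2 within a group. They also keep a gap within the DU145 pair numbered 2, with deposited trimmed means of 96.6 in EOS 2 and 126.5 in PGK 2. In the LNCaP pair numbered 2 these were 98.6 and 97.3. Leaving out 1 array at a time gave medians from -0.37 to -0.26 for LNCaP EOS minus PGK and from 0.02 to 0.33 for DU145. It gave -0.68 to -0.33 for their difference, -0.15 to 0.03 for their mean, 0.15 to 0.33 between lines with 2 to 6 members called, and for ribavirin -0.19 to -0.06 in LNCaP, -0.36 to 0.01 in DU145 and -0.25 to -0.06 in the mean. With the replicate block the LNCaP EOS minus PGK median was -0.35, and the block ended no call for EOS or ribavirin, since none was made. Unscaled intensities were not run for ribavirin. Among values of single members under other settings, 471 kept their side of the threshold, and 17, all between lines among PGK cells, lost their call. Only members called between lines could lose a call. For EOS minus PGK and ribavirin, keeping a side meant staying uncalled, so the 471 say little about stability there. Changes of sign near 0 without a call were counted among the 471. Where a value moved, the cause was not tested.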
